A study of Mus musculus with 4 samples.

Results

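Astrocytes and their precursors carry a characteristic set of channels, transporters and gap junction proteins, and 9 genes of this set were followed here. They encode glutamate transporters (Slc1a2, Slc1a3), a sodium bicarbonate cotransporter (Slc4a4), an inwardly rectifying potassium channel (Kcnj10), a water channel (Aqp4), membrane proteins linked to anion and volume control (Mlc1, Ttyh1) and connexins (Gja1, Gjb6). The genes were chosen by name, with earlier results of these data known. All 9 have a row among the 13881 genes of the deposited table. RNA was measured in neural progenitor cells taken from the forebrain of C57bl/6 mouse embryos on day 14 and expanded in a medium with 2% B27 and 20 ng/ml each of EGF and FGF-2. The shRybp group (2 libraries) was infected with a lentivirus that expresses a short hairpin RNA against Rybp, a subunit of Polycomb repressive complex 1, and it was set against the group labelled ctrl (2 libraries), whose vector the labels used here do not name. Both groups come from an expanded primary population, and nothing in the labels says that libraries of a group are separate cultures or infections. All p-values here rest on the spread between libraries of a group, and that spread may be technical.

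These proteins serve the homeostasis that astrocytes provide for neurons. Glutamate released at synapses is cleared by sodium-coupled transporters, potassium released by firing neurons is taken up through inward rectifiers and the sodium pump, and water, bicarbonate and chloride move with them. Connexins join the cells into a network that spreads these loads. Several of the genes, Slc1a3 and Gja1 among them, are already active in radial glia, the progenitors of the embryonic forebrain, whereas Slc1a2, Aqp4 and Gjb6 are known for rising as astrocytes mature.

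Library totals lay between 14355308 and 17598873 counts. Rybp itself had 3.01 and 2.66 FPKM (fragments per kilobase of gene length, scaled to library depth) in shRybp 1 and 2, against 4.43 and 3.95 FPKM in control 1 and 2, so that 65.8% of the control level remained (log2 fold change -0.60). The progenitor marker Nes averaged 240.1 ± 5.13 FPKM in shRybp and 147 ± 2.30 FPKM in control (SD, n = 2 each). Another, Sox2, averaged 99.95 ± 2.39 FPKM in shRybp and 134 ± 5.56 FPKM in control (SD, n = 2 each). Both RNAs were thus present in both groups, with Nes higher (log2 fold change 0.67) and Sox2 lower (-0.46) in shRybp. Libraries also differed within the groups in a trace of mature oligodendrocyte RNA. The myelin gene Mag had 121 and 0 counts in shRybp 1 and 2, against 5 and 116 counts in control 1 and 2. The libraries with more of it were thus shRybp 1 and control 2. Of the 2 microglial markers with a row, the receptor gene Csf1r had 44 and 1 counts in shRybp 1 and 2, against 4 and 47 counts in control 1 and 2. The other, P2ry12, did not follow it within shRybp, with 16 and 26 counts in shRybp 1 and 2, against 6 and 18 counts in control 1 and 2.

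Every gene of the set was lower in shRybp. In all 9, both shRybp libraries lay below both control libraries, an arrangement found in 29.0% of all tested genes. The reverse, found in 38.5% of tested genes, occurred in 0 of the 9. The mean level over the 4 libraries reached 1 FPKM, the minimum for testing, in 8 of the 9, and each of the 8 exceeded that minimum in both groups. All 8 fell at an adjusted p of 0.05 in edgeR's quasi-likelihood test, where 16.7% of the 12062 tested genes fell and 16.3% rose. Their median log2 fold change (shRybp over control) was -1.05, beside 0.00 over all tested genes. All 8 fell by at least 1.5-fold, which 4.87% of tested genes did, and 4 of them (Ttyh1, Kcnj10, Aqp4 and Slc1a2) by at least 2-fold, which 1.21% did. Because the set was chosen with earlier results known, these counts only describe it. Fewer cells of an astrocytic kind and less of these RNAs per cell cannot be told apart in such bulk samples.

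**Figure D1:**
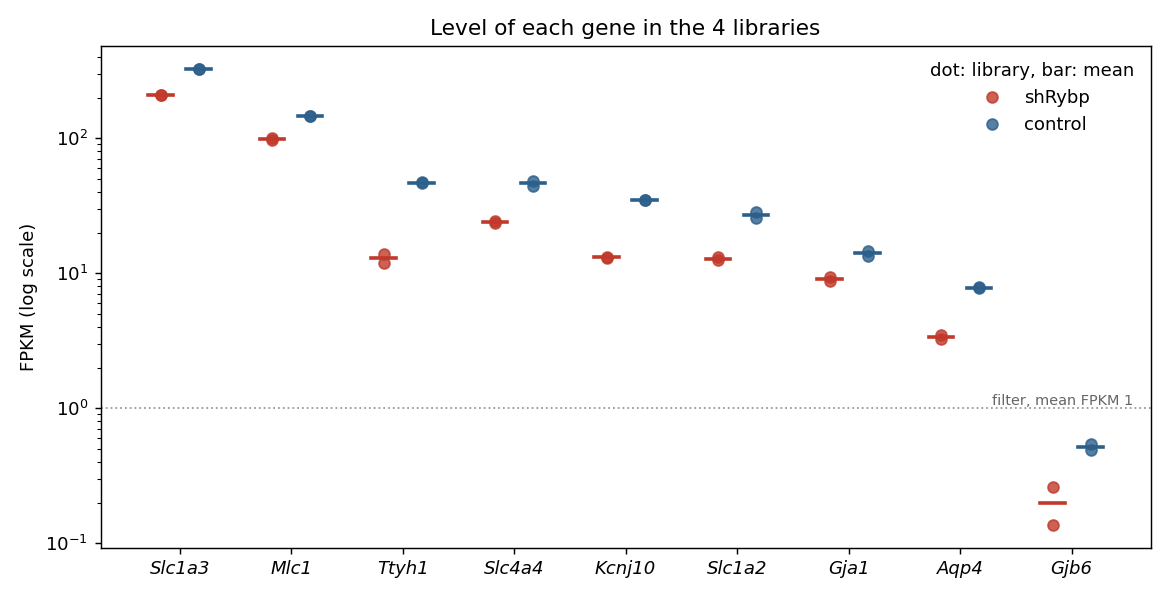
FPKM on a log scale for each of the 9 genes, ordered by their control mean, with a dot for each library and a bar for the mean of 2 libraries; shRybp is red and stands left of control in blue. The red dots lie below the blue dots in every gene, and Gjb6 lies below the filter of 1 FPKM in both groups.

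The glutamate transporters come first, because they include the most abundant gene of the set. Slc1a3 (ENSMUSG00000005360, mm10 chromosome 15, 8634124 to 8710764, minus strand), the transporter also called GLAST, had 210.3 and 209.7 FPKM in shRybp, against 327 and 326 FPKM in control, from 25816 and 29417 counts in shRybp and 49212 and 44437 in control. The groups were far apart relative to their spread, and 62.7% of the control level remained (log2 fold change -0.67 with an SE of 0.07, adjusted p = 1.4e-05 in edgeR). Slc1a3 alone made up 55.1% and 54.4% of the summed FPKM of the 9 genes in shRybp, against 50.6% and 49.97% in control.

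Slc1a2 (ENSMUSG00000005089, mm10 chromosome 2, 102658659 to 102790784, plus strand) encodes the transporter that does most of the glutamate uptake in the adult forebrain. It had 13.2 and 12.4 FPKM in shRybp, against 25.6 and 28.4 FPKM in control, which left 46.4% of the control level (log2 fold change -1.11 with an SE of 0.07, adjusted p = 2.7e-07 in edgeR). The fall was larger than that of Slc1a3 by the fitted values, with a 95% interval of -1.26 to -0.96 for Slc1a2 and of -0.82 to -0.53 for Slc1a3, which do not overlap (differences between genes were not tested further). Exons of the antisense gene Gm13872, not analysed here, overlap those of Slc1a2. The FPKM ratio of Slc1a3 to Slc1a2 within a library was accordingly 15.9 and 16.9 in shRybp, against 12.8 and 11.5 in control.

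The rest of the Slc1a family did not move as a block. Of the 3 other family members tested, 2 fell and 1 rose. Slc1a1, a glutamate transporter found mainly in neurons, averaged 1.75 ± 0.09 FPKM in shRybp and 3.90 ± 0.01 FPKM in control (log2 fold change -1.19 with an SE of 0.09, adjusted p = 1.9e-06 in edgeR). Its exons overlap those of 4430402I18Rik on the opposite strand, and without strand information their reads cannot be told apart. The neutral amino acid exchanger Slc1a4 fell by 0.35 on the log2 scale. Slc1a5, a glutamine carrier of proliferating cells, was the one that rose, with 5.78 ± 0.45 FPKM in shRybp and 3.15 ± 0.01 FPKM in control (log2 fold change 0.84 with an SE of 0.11, adjusted p = 8.0e-05 in edgeR).

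Among 16 tested genes of a wider list of glutamate, glutamine and related amino acid handling, 7 fell and 3 rose, with a median log2 fold change of -0.07. Besides Slc1a1, those with the largest falls were Slc6a11 (-1.04), a GABA transporter of astrocytes, and Glud1 (-0.99), which encodes the mitochondrial enzyme that oxidizes glutamate. Glul, which encodes glutamine synthetase, the astrocyte enzyme that turns the captured glutamate into glutamine, averaged 78.3 ± 1.57 FPKM in shRybp and 123 ± 6.10 FPKM in control (log2 fold change -0.69 with an SE of 0.06, adjusted p = 7.1e-06 in edgeR). After Slc1a5, the rises belonged to Got1 (0.36), a cytosolic transaminase gene, and Slc7a5 (0.25), an essential amino acid carrier gene that lost its call without shRybp replicate 2 (log2 fold change 0.15, adjusted p = 0.18).

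Kcnj10 and its partner Kcnj16 fell, while sodium pump subunit genes went in both directions. Kcnj10 (ENSMUSG00000044708, mm10 chromosome 1, 172341210 to 172374085, plus strand), the main inward rectifier of astrocytes, had 12.9 and 13.3 FPKM in shRybp, against 34.7 and 34.7 FPKM in control. Replicates were nearly equal in both groups. Of the control level, 36.8% was left (log2 fold change -1.44 with an SE of 0.06, adjusted p = 2.0e-08 in edgeR), and 35 tested genes had a lower fold change. Kcnj16, whose subunit combines with that of Kcnj10 into a pH-sensitive channel, averaged 23.6 ± 0.26 FPKM in shRybp and 31.0 ± 0.47 FPKM in control, a smaller fall (log2 fold change -0.43 with an SE of 0.06, adjusted p = 0.00030 in edgeR) with an interval of -0.57 to -0.29 that does not overlap that of Kcnj10 (-1.58 to -1.31). In control the Kcnj10 level was above that of Kcnj16, and in shRybp it was below. The 5 other Kcnj genes with a row stayed under the filter.

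In the list of potassium channels, sodium pump and cation cotransporters, 7 of 15 tested genes fell and 3 rose (median log2 fold change -0.12). Atp1b2, a sodium pump subunit gene of astrocytes, averaged 149.8 ± 17.1 FPKM in shRybp and 237 ± 18.1 FPKM in control (log2 fold change -0.69 with an SE of 0.08, adjusted p = 5.1e-05 in edgeR). Kcnn3 (-0.59), a calcium-activated potassium channel gene, also fell. The pump subunit gene Atp1b3 (0.35) rose, as did the chloride cotransporter gene Slc12a2 (0.46), while Atp1b1 did not pass and had a log2 fold change of 0.00 (95% interval -0.13 to 0.13).

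Slc4a4 (ENSMUSG00000060961, mm10 chromosome 5, 88886486 to 89239653, plus strand) encodes the cotransporter that brings bicarbonate into astrocytes with sodium. It had 24.5 and 23.7 FPKM in shRybp, against 44.3 and 48.4 FPKM in control, so that 50.7% remained (log2 fold change -0.98 with an SE of 0.06, adjusted p = 5.2e-07 in edgeR). None of its 4 tested relatives fell as far. Slc4a3 fell by 0.37 on the log2 scale, a call that ended without shRybp replicate 1 (adjusted p = 0.087). Slc4a7 rose by 0.19, a call that ended without any 1 of the 4 libraries (adjusted p between 0.085 and 0.14). Slc4a2 (log2 fold change 0.01, 95% interval -0.19 to 0.20) and Slc4a8 (-0.25, -0.46 to -0.03) did not pass. In the list of acid-base and lactate genes, 2 of 12 tested genes fell and 2 rose (median log2 fold change -0.01; 1 to 4 falls and 1 to 2 rises over the alternatives, with 4 falls without control replicate 1 and 1 without control replicate 2 or shRybp replicate 1), and beside Slc4a3 the fall was that of Bsg (-0.25), a chaperone of lactate carriers whose call ended without control replicate 2 (adjusted p = 0.065).

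**Figure D2:**
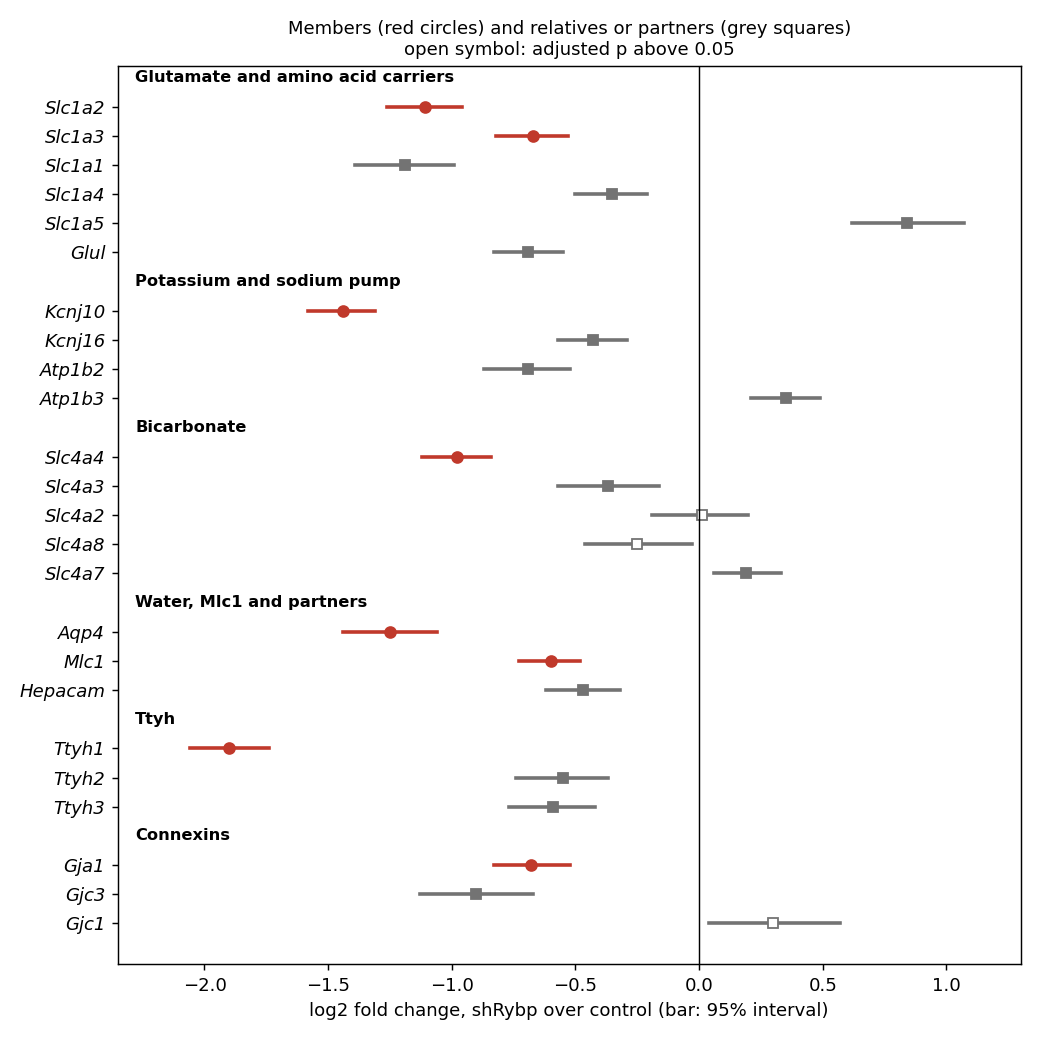
Log2 fold change of shRybp over control with its 95% interval for the 8 tested genes of the set (red circles) and for family members or partners (grey squares), open where the adjusted p is above 0.05. Ttyh1 at -1.90 and Kcnj10 at -1.44 stand furthest left. Slc1a5, Atp1b3, Gjc1 (open) and Slc4a7 lie to the right of 0, and Slc4a2 (open) stands at 0.01.

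Aqp4 (ENSMUSG00000024411, mm10 chromosome 18, 15389496 to 15410982, minus strand) encodes the water channel that astrocytes concentrate in the endfeet around blood vessels. It was low in these cultures, with 3.28 and 3.46 FPKM in shRybp, against 7.81 and 7.85 FPKM in control, from 294 and 354 counts in shRybp and 858 and 781 in control. Replicates lay close together, and 42.0% of the control level was left (log2 fold change -1.25 with an SE of 0.09, adjusted p = 8.5e-07 in edgeR). Kcnj10 and Aqp4, whose products share the endfoot membrane, had an FPKM ratio of 3.94 and 3.84 in shRybp, against 4.45 and 4.42 in control. The other aquaporin genes with a row, Aqp9 and Aqp11, were below the filter.

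Mlc1 (ENSMUSG00000035805, mm10 chromosome 15, 88955884 to 88979007, minus strand) encodes an astrocyte membrane protein that takes part in the regulation of volume-activated chloride currents and is mutated in a human leukodystrophy. It was the next most abundant of the set after Slc1a3, with 96.8 and 99.6 FPKM in shRybp, against 145.8 and 145.5 FPKM in control. This was the smallest fall among the 8 (65.8% of control, log2 fold change -0.60 with an SE of 0.06, adjusted p = 1.1e-05 in edgeR). Hepacam, the adhesion molecule that carries Mlc1 to cell junctions, averaged 94.2 ± 9.16 FPKM in shRybp and 127 ± 0.06 FPKM in control (log2 fold change -0.47 with an SE of 0.07, adjusted p = 0.00030 in edgeR). The FPKM ratio of Mlc1 to Hepacam was 1.10 and 0.989 in shRybp, against 1.14 and 1.14 in control.

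Of 12 tested genes of the endfoot anchoring list, which holds Hepacam and the dystrophin-associated complex that tethers Aqp4 and Kcnj10, 7 fell and 2 rose (median log2 fold change -0.22). The number that fell was 2 in DESeq2, 4 without control replicate 1 or shRybp replicate 1 and 3 without shRybp replicate 2. The receptor gene Gpr37l1, whose product binds Hepacam and Mlc1, fell most, with a log2 fold change of -1.18 (adjusted p = 0.00010 in edgeR). Those that rose were the cytoskeletal linker gene Vcl (0.35), whose exons overlap Ap3m1 on the opposite strand, and the syntrophin gene Sntb2 (0.46), which lost its call without control replicate 1 (adjusted p = 0.069) or shRybp replicate 1 (adjusted p = 0.088).

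The deepest fall was that of Ttyh1 (ENSMUSG00000030428, mm10 chromosome 7, 4119408 to 4136708, plus strand), a tweety family membrane protein that is abundant in neural stem cells and astrocytes and has been described as an anion channel. It had 11.9 and 13.8 FPKM in shRybp, against 46.2 and 47.6 FPKM in control, from 1088 and 1451 counts in shRybp and 5194 and 4844 in control. That left 26.8% of the control level, a 3.73-fold decrease (log2 fold change -1.90 with an SE of 0.07, adjusted p = 1.3e-08 in edgeR), and 8 tested genes had a lower fold change. The other family members fell by less. Ttyh2 averaged 9.34 ± 0.56 FPKM in shRybp and 13.4 ± 0.27 FPKM in control (log2 fold change -0.55), and Ttyh3 averaged 95.4 ± 10.7 FPKM in shRybp and 141 ± 11.5 FPKM in control (-0.59). Their 95% intervals, -0.74 to -0.37 for Ttyh2 and -0.77 to -0.42 for Ttyh3, do not reach that of Ttyh1 (-2.06 to -1.74). In control, Ttyh3 was the family member with the higher level, and it was also so in shRybp. The antisense gene 9430041J12Rik overlaps the start of Ttyh1 and shares exon sequence with it, with 9 and 5 counts in shRybp and 23 and 26 counts in control, few beside those of Ttyh1. Exons of a further antisense gene, D030047H15Rik, also overlap those of Ttyh1, and D030047H15Rik has no row and so no counts here.

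Among 16 tested water and anion channel genes outside the set, 6 fell and 4 rose (median log2 fold change -0.12). The subunits of the volume-regulated anion channel went in both directions. Its obligatory subunit gene Lrrc8a fell by 0.66 on the log2 scale and Lrrc8d by 0.47, whereas Lrrc8c rose by 0.64 and Lrrc8b by 0.21. Exons of Lrrc8a overlap those of Gm28035 on the same strand and of the antisense gene 1700084E18Rik, neither of which has a row. The call of Lrrc8b ended without any 1 of the 4 libraries (adjusted p between 0.085 and 0.13). The chloride intracellular channel genes Clic1 (0.47) and Clic4 (0.33) rose.

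Gja1 (ENSMUSG00000050953, mm10 chromosome 10, 56377330 to 56402513, plus strand) encodes the main connexin of astrocytes and radial glia. It had 8.69 and 9.35 FPKM in shRybp, against 14.7 and 13.4 FPKM in control, so that 62.5% remained (log2 fold change -0.68 with an SE of 0.07, adjusted p = 2.1e-05 in edgeR). The other connexin of astrocyte gap junctions, Gjb6 (ENSMUSG00000040055, mm10 chromosome 14, 57123303 to 57133611, minus strand), was barely detected. It had 0.26 and 0.14 FPKM in shRybp, against 0.49 and 0.54 FPKM in control, from 10 and 6 counts in shRybp and 23 and 23 in control, and was not tested. With no filter on low values it passed the threshold (log2 fold change -1.42 with an SE of 0.42, 95% interval -2.30 to -0.53, adjusted p = 0.017 in edgeR over 13881 genes, of which 16.0% fell). Within a library, Gja1 stood 33.4 and 68.4 times above Gjb6 by FPKM in shRybp, against 30.2 and 24.96 times in control.

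Other connexins were few. Gjc3, a connexin of the oligodendrocyte lineage, averaged 3.26 ± 0.18 FPKM in shRybp and 5.92 ± 0.52 FPKM in control (log2 fold change -0.90 with an SE of 0.11, adjusted p = 5.6e-05 in edgeR). Gjc1 averaged 3.07 ± 0.17 FPKM in shRybp and 2.43 ± 0.25 FPKM in control and did not pass (log2 fold change 0.30, adjusted p = 0.076 in edgeR), though it passed without control replicate 2 (adjusted p = 0.040). Of 7 tested genes in the gap junction list, 3 fell and 0 rose, with a median of -0.17 (1 rose without control replicate 2). The falls included the junctional scaffold gene Tjp1 (-0.17), whose call ended under each single library left out (adjusted p between 0.077 and 0.16).

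The order of levels within the set changed between the groups. In control it ran from Slc1a3 and Mlc1 through Ttyh1, Slc4a4, Kcnj10, Slc1a2, Gja1 and Aqp4 to Gjb6, and the values of Ttyh1 and Slc4a4 overlapped. In shRybp, Slc1a3 and Mlc1 still led and Slc4a4 came next. Kcnj10, Ttyh1 and Slc1a2 followed with overlapping values between 11.9 and 13.8 FPKM, above Gja1, Aqp4 and Gjb6. Among the 12062 tested genes ordered by mean level, Ttyh1 stood at place 4159 in shRybp and 937 in control, Kcnj10 at 4091 and 1384, and Slc1a3 at 127 and 71. The most abundant genes of the set, Slc1a3 and Mlc1, were among those with smaller falls, and so was Gja1 at a far lower level. The summed FPKM of the 9 genes was 382 and 386 in shRybp, against 647 and 652 in control.

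**Figure D3:**
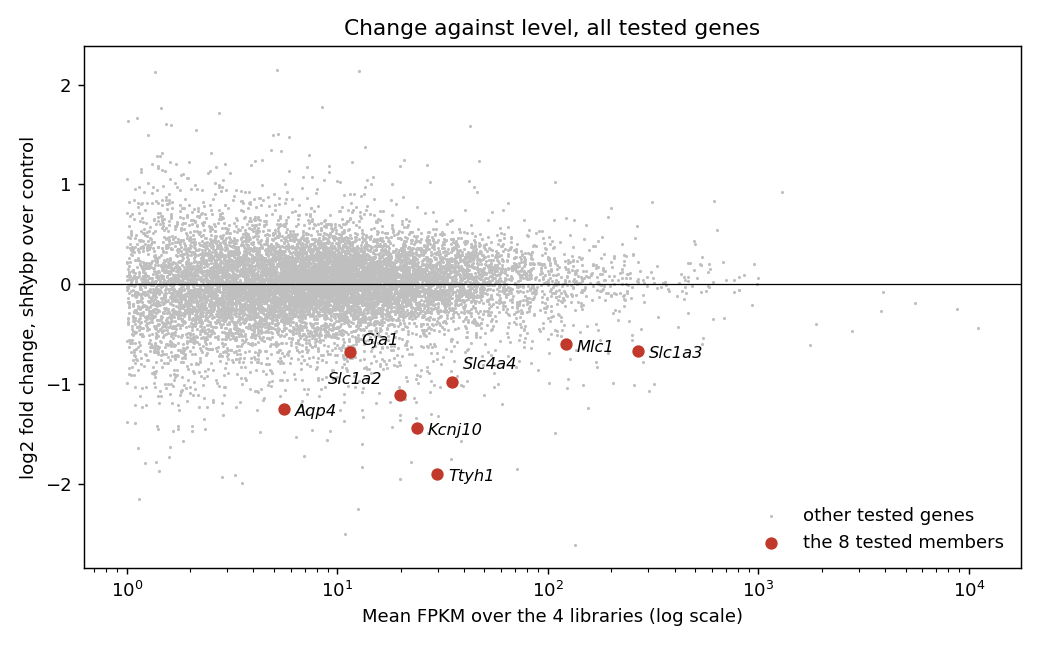
Log2 fold change of shRybp over control against mean FPKM (log scale) for all 12062 tested genes (grey) and the 8 tested genes of the set (red). The 8 span mean levels from Aqp4 to Slc1a3 and lie between -1.90 and -0.60.

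Leaving out a library, including those with more Mag RNA, ended no call in the set. Without shRybp replicate 1 the 8 log2 fold changes ran from -1.80 to -0.59, and without control replicate 2 from -1.89 to -0.62.

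Promoters of the set were compared because variant Polycomb complexes are known to be recruited to CpG-rich promoters. RefSeq windows on GRCm38.p6, which reach from 250 bases before to 50 bases after a transcript start, were found for 8 of the 9 genes (9 windows, 2 of them for Slc4a4). The CpG content of the windows found spanned almost the whole range of mouse promoter windows. The first Slc4a4 window, with 50 CpG dinucleotides, and that of Slc1a2, with 1, lay at opposite ends. A relation between CpG content and the falls was not tested. The Slc1a2 window starts at 102706188, far inside the gene, which begins at 102658659. A promoter at the outer start of Slc1a2 was therefore not among the windows compared. Ttyh1 and Mlc1, with the largest and smallest falls, had 14 and 3. These 4 windows are shown 5′ to 3′ on the strand of the gene, with each CpG in capitals. They lie at chr7:4119280-4119579 (Ttyh1, plus strand), chr5:88887010-88887309 (Slc4a4, plus strand), chr2:102706188-102706487 (Slc1a2, plus strand) and chr15:88978504-88978803 (Mlc1, minus strand).
Ttyh1: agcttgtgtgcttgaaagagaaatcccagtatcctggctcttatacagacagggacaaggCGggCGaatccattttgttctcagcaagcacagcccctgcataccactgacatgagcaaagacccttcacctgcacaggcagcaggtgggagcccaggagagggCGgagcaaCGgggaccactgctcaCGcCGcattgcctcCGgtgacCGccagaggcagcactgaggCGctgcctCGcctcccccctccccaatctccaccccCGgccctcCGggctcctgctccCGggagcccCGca
Slc4a4: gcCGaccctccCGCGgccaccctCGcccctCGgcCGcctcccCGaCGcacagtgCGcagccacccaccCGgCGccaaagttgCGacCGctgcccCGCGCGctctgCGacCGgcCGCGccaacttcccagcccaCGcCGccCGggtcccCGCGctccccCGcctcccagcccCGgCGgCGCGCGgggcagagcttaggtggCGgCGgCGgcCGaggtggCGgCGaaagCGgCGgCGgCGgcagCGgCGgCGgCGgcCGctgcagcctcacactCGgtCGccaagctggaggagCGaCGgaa
Slc1a2: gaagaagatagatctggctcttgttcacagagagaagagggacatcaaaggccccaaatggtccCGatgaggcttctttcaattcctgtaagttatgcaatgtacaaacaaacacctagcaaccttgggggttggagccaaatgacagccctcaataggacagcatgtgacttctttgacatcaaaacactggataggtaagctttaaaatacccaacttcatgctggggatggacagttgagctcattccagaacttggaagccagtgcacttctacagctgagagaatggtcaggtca
Mlc1: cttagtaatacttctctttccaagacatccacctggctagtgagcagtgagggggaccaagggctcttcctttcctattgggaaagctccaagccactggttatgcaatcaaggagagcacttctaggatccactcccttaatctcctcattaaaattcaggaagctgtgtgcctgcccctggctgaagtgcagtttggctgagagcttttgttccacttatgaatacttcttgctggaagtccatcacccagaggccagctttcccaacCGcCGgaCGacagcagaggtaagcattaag

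Kcnj10 had 21 CpG dinucleotides, Gja1 had 8, Gjb6 had 6, and Slc1a3 and the second window of Slc4a4 had 3 each. Over 32851 mouse promoter windows the median was 7, with quartiles of 3 and 20. The first Slc4a4 window held more than 99.1% of all windows did, and that of Slc1a2 held more than 5.43%. No CpG class was therefore shared by the windows found, and counts per gene do not show which start these cells used.

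Short motifs, searched on both strands, were likewise not shared throughout. The core site of nuclear factor I proteins (TTGGC) was in 5 of the 9 windows, beside 46.7% of all windows, and the CCAAT box (CCAAT), with which it can overlap, was in 5 of 9, beside 37.4%. The core recognized by the Notch partner Rbpj (TGGGAA) was in 2 of 9, those of Mlc1 and the first of Slc4a4, beside 25.6% of all windows. A Sox core (ACAATG) was in 0 of 9, beside 12.6%, and another (ACAAAG) in 1 of 9, that of Kcnj10, beside 18.7%. One STAT-type site (TTCNNNGAA) was found, in Slc1a3, beside 8.30% of all windows. The proneural E-box (CAGCTG) was in 1 of 9, that of Slc1a2, beside 16.3%. A TATA box (TATAAA) was in 1 of 9, that of Slc1a3, beside 13.6%, and a GC box (GGGCGG) in 4 of 9, beside 35.7%. The full nuclear factor I palindrome, a STAT site of wider spacing and an E-box of bHLH-ZIP factors (CACGTG) were in 0 of 9, beside 0.0365%, 6.95% and 7.15%. These letter matches describe the windows and are not evidence of binding.

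**Figure D4:**
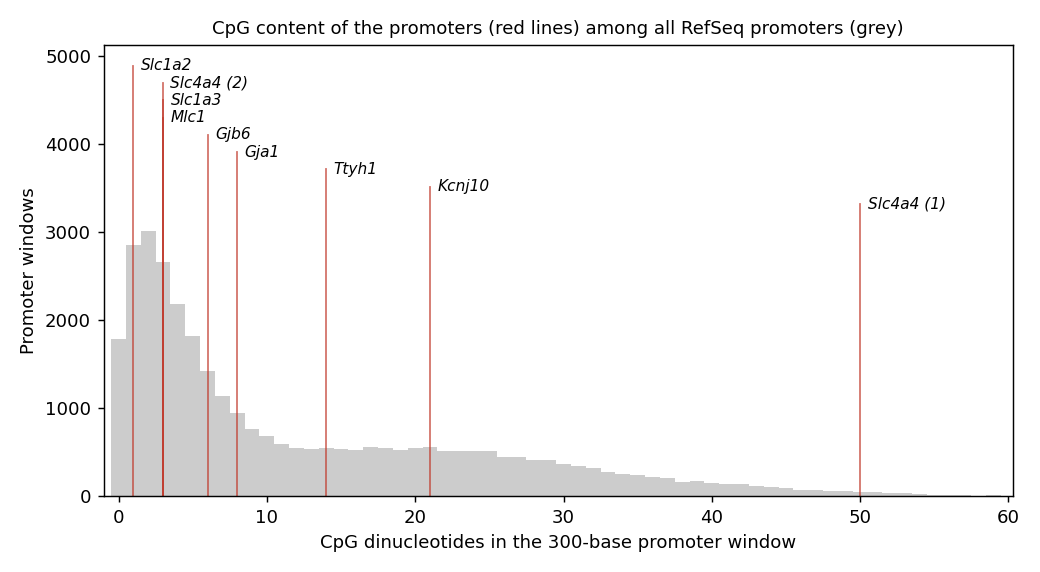
Number of CpG dinucleotides in the 300-base promoter windows of the set (red lines, with the 2 windows of Slc4a4 numbered) over the distribution of all 32851 RefSeq windows (grey bars). The windows range from 1 CpG in Slc1a2 to 50 in Slc4a4.

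The nearest tested genes on either side of the 9 loci mostly did not pass. Of these 18 neighbours, 3 fell, 2 rose and 13 did not pass, beside 16.7% and 16.3% of all tested genes that fell and rose. Cd44, an adhesion receptor gene 20.4 kb beyond Slc1a2, rose (log2 fold change 0.32; adjusted p = 0.093 without shRybp replicate 1), and so did Fjx1 on its other side (0.37). Pigm, 2.46 kb beyond Kcnj10, did not pass (0.20, edgeR adjusted p = 0.10), nor did Leng8, 0.331 kb beyond Ttyh1 (0.03, edgeR adjusted p = 0.88). Nadk2, the nearest on 1 side of Slc1a3 but 360 kb away, fell by 0.84, with Igsf8 (-0.37) and Kctd1 (-0.41). Exons of Igsf8 overlap those of another gene on the opposite strand, and without strand information their reads cannot be told apart.

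The genes outside the set whose profile over the 4 libraries was most like its median profile were Cst3, Ptprt, Ccdc190, Ncan and Amotl2. Likeness was the Euclidean distance between log2 CPM (counts scaled to library depth) centred on each gene's mean, and it was 0.042 for Cst3 and 0.088 for Amotl2, beside 0.062 for Slc4a4 and 0.890 for Ttyh1 within the set. With 4 libraries in 2 groups this measure mostly ranks genes by their fold change. Cst3, which encodes the protease inhibitor cystatin C, averaged 197 ± 3.84 FPKM in shRybp and 405 ± 21.6 FPKM in control (log2 fold change -1.07). Ncan, which encodes a proteoglycan that neural cells secrete, averaged 216 ± 4.37 FPKM in shRybp and 421 ± 28.8 FPKM in control.

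Other genes of astrocytes, encoding filaments, enzymes, transcription factors and secreted proteins, were lower in the same libraries. Of 24 tested, 20 fell and 0 rose, with a median log2 fold change of -0.60, and their summed FPKM was 2871 and 2831 in shRybp, against 4634 and 4479 in control. Apoe (-2.61), Gfap (-1.83) and Hes5 (-1.79) fell most, and Sparc, Nfib, Id3 and Acsbg1 did not pass. Fabp7 alone gave 1468 and 1351 of the summed FPKM in shRybp, against 2210 and 1982 in control. Fabp7 and Hes5 also stand in the list of progenitor markers, so their falls count in both lists. The part of cell composition in the changes of the set was not tested. Of 18 tested progenitor markers, some of which astrocytes also express, 9 fell and 3 rose, with a median of -0.24. Among all tested genes, 16.7% fell and 16.3% rose. Ednrb (-0.78) and Fabp7 (-0.61; adjusted p = 0.15 in limma on quantile-normalized values) fell, beside Hes5, while Nes (0.67) rose. Vim (0.27) and Tnc (0.21) also rose, but the call of Vim ended without control replicate 2 (adjusted p = 0.079) or shRybp replicate 2 (adjusted p = 0.069), and that of Tnc without control replicate 1 (adjusted p = 0.079), control replicate 2 (adjusted p = 0.051) or shRybp replicate 2 (adjusted p = 0.095).

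Markers of other cell types moved in part. Of 9 tested oligodendrocyte lineage genes, 4 fell, 0 rose and 5 did not pass. Gpr17 (-2.51), which overlaps Lims2 on the opposite strand, Sox10 (-1.99) and Pdgfra (-1.26) led the falls. Olig1 (-0.08) averaged 446.5 FPKM in shRybp and 462.0 FPKM in control and did not pass. Olig2 (-0.11) averaged 276.8 FPKM in shRybp and 290.4 FPKM in control and did not pass either. The list summed to 766 and 796 FPKM in shRybp, against 839 and 872 FPKM in control. Olig1 and Olig2 made up most of each of these sums. Of 9 tested neuron markers, 4 fell, among them Dcx (-1.22), Mapt (-1.05) and Snap25 (-0.46, a call that ended in DESeq2 and without 3 of the 4 libraries in turn), and 2 rose, Gap43 (0.76) and Syt1 (0.72), and the list summed to 352 and 335 FPKM in shRybp, against 261 and 239 FPKM in control. Gap43 made up most of that sum, and without it the list summed to 92.8 and 85 FPKM in shRybp, against 103 and 104 FPKM in control. The number of neuron markers that fell was 2 in DESeq2 and without control replicate 2 or shRybp replicate 2. Microglial and endothelial markers were near 0, with 2 of 11 and 2 of 9 having a row and none tested. The microglial list summed to at most 0.967 FPKM in any library and the endothelial list to at most 0.765 FPKM. Of 7 ependymal markers 2 were tested, and Foxj1 fell (-0.57), a call that ended in DESeq2 (adjusted p = 0.056). Of 10 mural and fibroblast markers 2 were tested, 0 fell (1 without control replicate 1 or shRybp replicate 2), and Acta2 rose (0.69), a call that ended in DESeq2 (adjusted p = 0.13) and without control replicate 2 (adjusted p = 0.076) or shRybp replicate 1 (adjusted p = 0.11). What part these cell types had in the result was not tested.

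**Figure D5:**
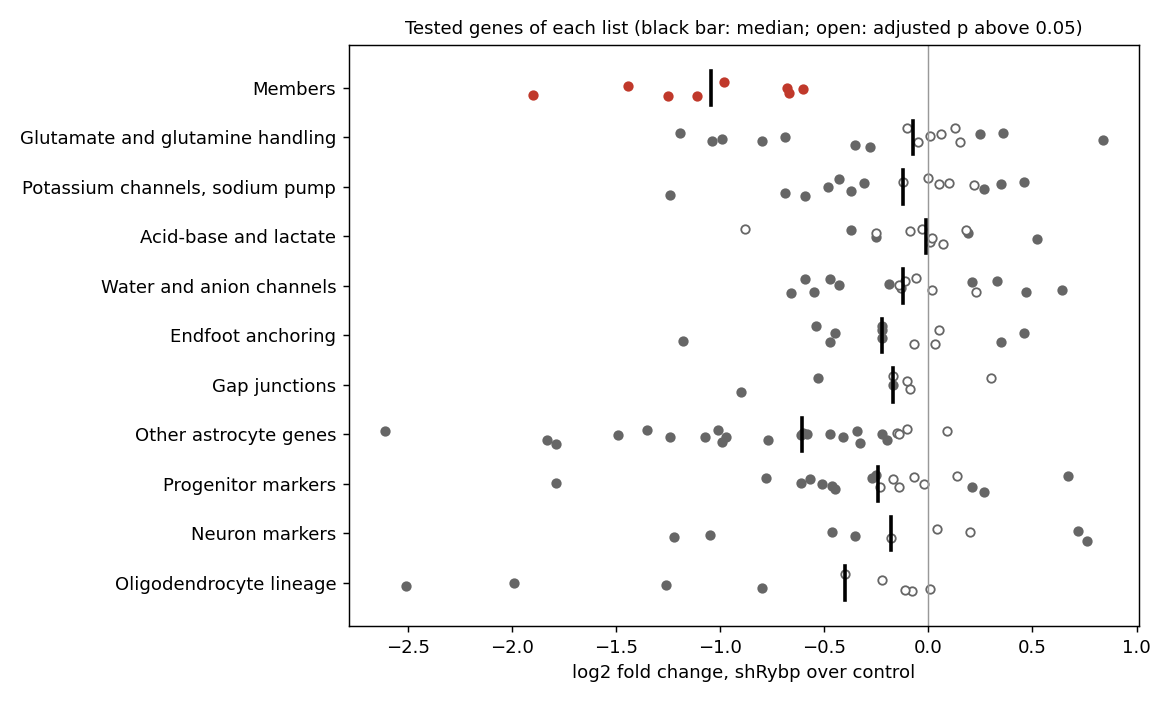
Log2 fold change of shRybp over control for the tested genes of each list, with 1 dot per gene (open where the adjusted p is above 0.05) and a black bar for the list's median. The set lies wholly below 0 with a median of -1.05, the other astrocyte genes have a median of -0.60, and every other list drawn holds genes on both sides of 0.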

How the data were processed

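Per the file headers, the deposited table holds raw read counts per gene and library beside FPKM values that the authors computed. The ratio of count to FPKM differed between libraries by 1 factor per library (largest relative difference 3.6e-08), so these FPKM values carry no further correction. Per the submitters' processing notes the genome build was mm10. The sources used here name no aligner or counter and do not state strandedness. The table starts at 40 counts per gene over the 4 libraries. Coordinates are those of the table, with chromosome and strand from GENCODE M21.

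Counts were tested with edgeR 4.0.16 (TMM, quasi-likelihood, R 4.3.3) on genes whose FPKM averaged 1 or more, with Benjamini-Hochberg adjustment over all 12062 and a threshold of 0.05. SE is the absolute log2 fold change over the square root of F. Replicates differed beyond counting noise (chi-square per degree of freedom 4.37 in shRybp and 5.18 in control). Alternatives were DESeq2 1.42.0, limma 3.58.1 on log2 FPKM, other scalings, no filter, a replicate block and leaving out each library. Members, lists and motifs were chosen with earlier results of these data known, so counts over lists are descriptions. Named are all members, their nearest relatives or partners, and up to 3 genes per list and direction with the largest called change. Genes named beyond this rule (Lrrc8b, Lrrc8d, Atp1b1, Slc4a2, Slc4a8, Sox2, Olig1, Olig2, Mag, Csf1r, the astrocyte genes that did not pass, and the nearest tested neighbours) were added after their values were seen. Some genes that the rule selects are not reported here.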

Additional observations from a re-analysis of the deposited data

How the results depend on the processing

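All 8 tested genes of the set kept their direction and their call under all 12 alternatives, with Ttyh1 between -2.02 and -1.79, Kcnj10 between -1.46 and -1.34 and Mlc1 between -0.62 and -0.56. The largest adjusted p was 0.0037, that of Gja1. With a library left out, 1481 to 1760 genes fell and 1296 to 1640 rose, the lowest number of rises (1296, against 1970 with all libraries) being that without shRybp replicate 2. Falls made up 50.5% of all calls, 42.1% on library totals and 42.1% in limma on log2(FPKM + 1). Same-numbered libraries share only a number in the labels (correlation of their deviations 0.103), and with the replicate block 2652 genes fell and 2676 rose, with the same 8 members among those that fell. Of 62 other named genes, 47 kept their call under every alternative and 0 reversed. Of 28 list counts, 13 moved by over 1.5 times under some alternative: both directions of the acid-base, endfoot anchoring, ependymal and mural lists, the falls among neuron markers, and the rises among the glutamate, gap junction, progenitor and oligodendrocyte lists. The falls ranged from 2 to 7 in the endfoot list and from 17 to 22 among other astrocyte genes. Gjb6, with 6 to 23 counts a library, was not tested with the filter and passed without it (adjusted p = 0.017).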
